A study of Mus musculus with 6 samples.

Results

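The ribosomal protein genes of the cytosolic and of the mitochondrial ribosome were followed in 6 bulk RNA-seq libraries. The cells are labelled as Hepa1-6, a line from a mouse liver cancer. Members were the protein-coding rows of the deposited table whose names follow the ribosomal protein pattern (Rpl, Rps, Rplp, Rpsa, Mrpl and Mrps with their numbers), without Rps27l. This gave 157 of 55573 rows, 79 for the cytosolic ribosome (49 of the large and 30 of the small subunit) and 78 for the mitochondrial ribosome (49 and 29). The 3 libraries KO1 to KO3 are labelled as Matr3 knockouts made with CRISPR/Cas9, and the 3 libraries WT1 to WT3 as wild type. Matr3 encodes matrin 3, which sits in the nuclear matrix and binds RNA. All cells were grown in DMEM with fetal bovine serum. The labels do not say how many knockout clones there were or whether libraries came from separate cultures, so the p-values cover the variation among these libraries alone, and that variation may be technical.

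A ribosome consists of ribosomal RNA and ribosomal proteins in a large and a small subunit. The cytosolic ribosome translates nearly all cellular mRNAs, and most of its protein mRNAs begin with a C followed by a run of pyrimidines, the 5′ terminal oligopyrimidine (TOP) motif, through which mTORC1 and LARP1 control their translation. The mitochondrial ribosome translates the few mRNAs of the mitochondrial genome into respiratory chain subunits; its proteins are encoded in the nucleus, made in the cytosol and imported. Cytosolic ribosomal protein genes have left many processed pseudogenes in mammalian genomes, copies of the mRNA that were inserted back into DNA and that can attract reads from the parent.

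Libraries held between 20736570 and 30794032 counts. KO1 and KO3 were nearest to each other (chi-square of 3.31 per gene) and KO2 stood at 50.6 and 60.1 from them, while WT2 and WT3 differed by 5.86 and WT1 stood at 21.3 and 24.9 from those. Results below that rest on KO2 or WT1 are therefore also given without them. Matr3 itself was at 76.0, 86.1 and 75.3 CPM (counts scaled to a common library total, with TMM factors) in KO1 to KO3 and at 129, 125 and 134 CPM in WT1 to WT3, -0.71 on the log2 scale (SE 0.0899; adjusted p = 0.00270 in edgeR's quasi-likelihood test), so its mRNA was lower and not lost. Of 9 hepatocyte and hepatoma markers, 3 reached a mean of 1 CPM (Krt8, Krt18 and Afp). Alb, Ttr, Apoa1, Serpina1a and Hnf4a were at or near 0 in every library, and Apob reached at most 0.28 CPM, in WT1. Summed, this list was at 1020 to 1075 CPM in the knockout and 577 to 683 CPM in the wild type, mostly from the keratins Krt8 and Krt18. Afp went the other way without a call (log2 fold change -0.79, edgeR adjusted p = 0.0505). It was at 2.67, 2.14 and 3.55 CPM in the knockout and 4.81, 4.57 and 5.06 CPM in the wild type. Markers of leukocytes summed to 12.4 to 16 CPM in the knockout and 10.7 to 11.9 CPM in the wild type, nearly all from Cd68, with Ptprc, Adgre1 and Cd3e at or near 0. Fibroblast markers summed to 19.8 to 28.6 CPM in the knockout and 14.4 to 16.4 CPM in the wild type, and endothelial markers to 0.844 to 1.4 and 2.80 to 3.48 CPM. Among the fibroblast markers Col1a1 was called higher (log2 fold change 0.81, edgeR adjusted p = 0.0198). Pdgfra (0.27) and Col1a2 (-0.69) were not called. The endothelial difference came from Cdh5, with means of 0.481 CPM (knockout) and 2.37 CPM (wild type). It was called lower (log2 fold change -2.27, edgeR adjusted p = 0.00413). Pecam1 hardly differed and was not called (-0.09, adjusted p = 0.923), and Kdr was at or near 0. The part of these differences in any result was not tested. In bulk RNA, fewer cells of a type and less RNA per cell cannot be told apart.

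Annotated mRNA starts show the TOP motif in a minority of the cytosolic set. The windows below, from RefSeq on GRCm38.p6, hold 15 bases before and 15 from the annotated start. They are shown for some of the members named in the results. Of the called members, Mrps16 is not shown and Mrpl54 had no window. Capitals mark the start base and any pyrimidine run that follows it.
Rpl35 (chr2:39005117-39005146, minus strand): cggccccgccctttcCTCTTTCTCTCgaac
Rpl15 (chr14:18270972-18271001, minus strand): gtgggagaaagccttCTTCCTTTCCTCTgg
Rpl38 (chr11:114668565-114668594, plus strand): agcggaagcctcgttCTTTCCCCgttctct
Rps28 (chr17:33824548-33824577, minus strand): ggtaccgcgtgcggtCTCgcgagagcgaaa
Mrpl27 (chr11:94653776-94653805, plus strand): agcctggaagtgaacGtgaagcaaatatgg
Mrpl58 (chr11:115403737-115403766, plus strand): ggaagagtgagcaccGgaagcggtcctggg
Mrps2 (chr2:28468051-28468080, plus strand): tctgccgggcaggaaGagtctctgcaggat
Mrpl14 (chr17:45686334-45686363, plus strand): ctcacggagaaccccTggcgcgcaggcgca
A start of C followed by at least 4 pyrimidines was present at an annotated start of 13 of the 59 cytosolic members matched by symbol (22%) and of 0 of 69 matched mitochondrial members, against 3.01% of all 27025 symbols in the RefSeq table. Rpl35, Rpl15 and Rpl38 carry it, and the run in Rps28 is 3 bases long. A start annotated a few bases away hides the motif, and a match or its absence describes only these letters. The letters CCGGAA, the core bound by ETS factors such as GABPA, occurred on either strand within 250 bases before to 50 after the start in 54.2% of cytosolic and 58.0% of mitochondrial members, against 16.7% of all symbols. AAGATGG, the core of the YY1 site, occurred in 15.3% and 18.8% against 7.28%. The letters TATAAA were found 45 to 16 bases before the start in 0 of the members of either ribosome and in 2.57% of all symbols. The 13 tested cytosolic members with a TOP start had a median log2 fold change of -0.03 and the 43 tested and matched members without one 0.07.

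The mRNAs of the cytosolic ribosome differed between the groups by less than the libraries spread. Of 79 members, 76 passed the filter on low counts and were tested; 0 were higher and 2 lower in the knockout (Rpl35 and Rpl15), beside 15.2% of all 14842 tested genes called, 7.69% higher and 7.48% lower. At an unadjusted p under 0.05, 6 members were higher and 7 lower, beside 31.0% of all tested genes (15.5% in each direction). DESeq2 called 2 higher and 5 lower, beside 19.6% of all tested genes (9.84% higher, 9.78% lower). The median log2 fold change was 0.05 over these members and -0.02 over all tested genes. Summed over members, the knockout libraries held 36277, 32438 and 38944 CPM and the wild-type libraries 33879, 34824 and 33852 CPM, with means of 35886 ± 3270 and 34185 ± 554 CPM (SD, n = 3 each). The groups overlap, with KO3 at the top and KO2 at the bottom of all 6 libraries. Without KO2 they do not, and the difference of the means is 3425 CPM in place of 1701 CPM (summed CPM, cytosolic). In 8 members the groups did not overlap (knockout above in 3, below in 5), beside 36.6% of all tested genes. The untested members were Rpl3l, the heart and muscle paralogue of Rpl3, and Rpl10l and Rpl39l, testis paralogues; Rpl10l and Rpl39l had 0 counts and Rpl3l at most 0.187 CPM in any library.

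**Figure D1:**
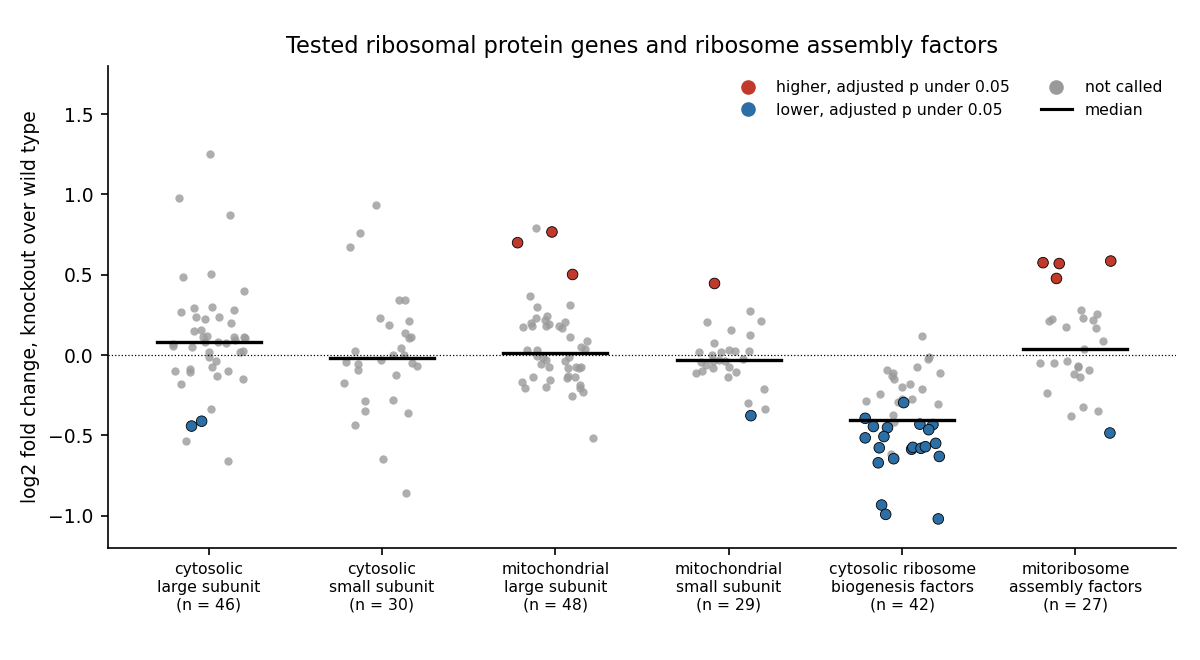
Log2 fold change of every tested member, knockout over wild type, by ribosome and subunit, beside 2 lists of assembly factors; each point is 1 gene, coloured points passed an adjusted p of 0.05 and bars mark medians. Members of both ribosomes spread around 0 with 7 calls among 153 genes, while 21 of 42 cytosolic biogenesis factors lie below 0 with a call.

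Both members that fell belong to the large subunit. Rpl35 (ENSMUSG00000062997; chromosome 2, 38891592 to 38895636, minus strand), which lines the exit of the peptide tunnel, was at 251, 228 and 256 CPM in the knockout and 373, 301 and 325 CPM in the wild type. Every knockout library was below every wild-type library, with means of 245 ± 15.4 and 333 ± 36.5 CPM (SD, n = 3 each) and a log2 fold change of -0.44 (SE 0.107, edgeR adjusted p = 0.0283). Rpl15 (ENSMUSG00000012405; chromosome 14, 4198305 to 4201873, plus strand), a protein of the large subunit's core that is needed for pre-rRNA processing, was at 169, 177 and 202 CPM in the knockout and 241, 243 and 244 CPM in the wild type. The wild-type libraries were nearly equal and all knockout libraries lay below them (log2 fold change -0.41, SE 0.0935, edgeR adjusted p = 0.0229). Coordinates are those of the deposited table; only 2 of the 157 members have the same coordinates in the GRCm38 annotation (GENCODE M21), so their build is not settled and they must not be read against the RefSeq windows above. Leaving out 1 library ended the call of Rpl35 in 5 of 6 fits and that of Rpl15 in 4 of 6 (adjusted p from 0.0247 to 0.112 and from 0.0180 to 0.154). The gene of Rpl35 overlaps Arpc5l by 277 bases and Wdr38 over 4045 bases on the other strand, and that of Rpl15 overlaps Nkiras1 by 256 bases; whether counting used strand is not stated.

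**Figure D2:**
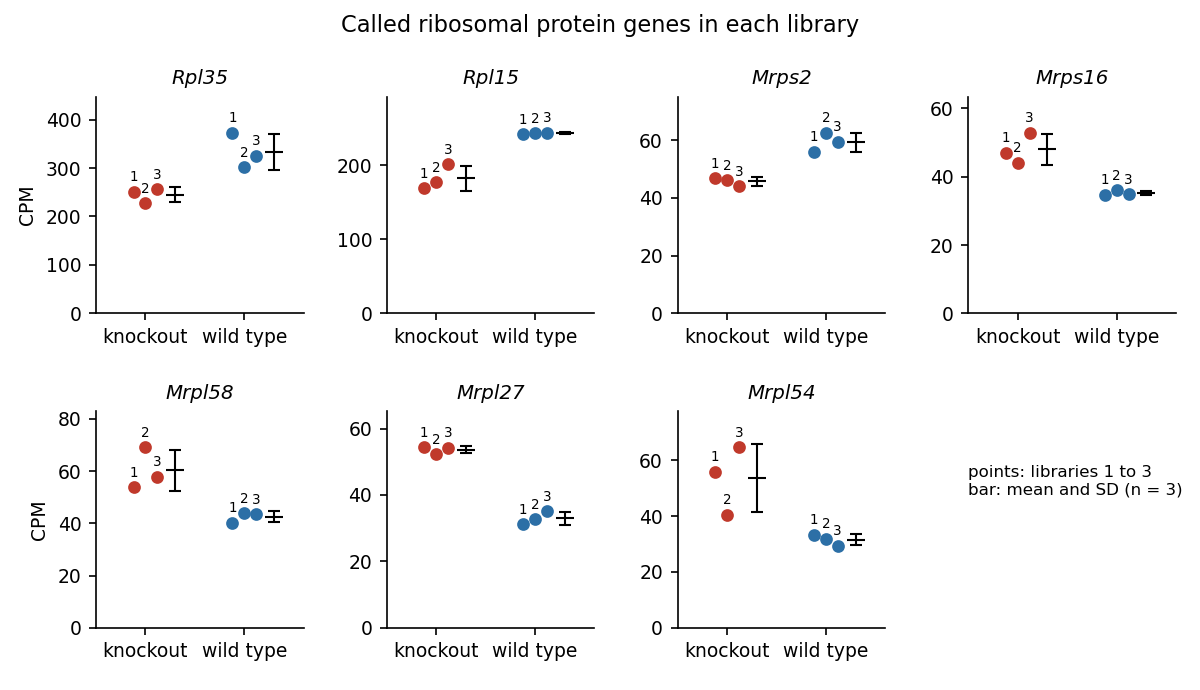
CPM of the 7 members that passed an adjusted p of 0.05, in each of the 3 knockout (red) and 3 wild-type (blue) libraries, with mean and SD beside the points and axes that start at 0. In each panel the groups do not overlap; Rpl15 varies little among the wild-type libraries (241 to 244 CPM), and Mrpl27 little in either group.

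For the cytosolic ribosome, a member's own row holds only part of its reads. Pseudogene and retrocopy rows that name a member as their parent numbered 1644, belonged to 75 of the 79 members, and had counts in 673 cases; they held 47.5% of all reads of the cytosolic families. For 38 members the own row held less than 50% of the family's reads and for 19 less than 10%. Rps27 kept 0.698% on its own row, Rps13 0.868% and Rps10 0.954%, while Rpl4, Rpl8, Rpl41, Rplp2, Rps9 and Rps21 kept 100%. The mitochondrial families had 47 such rows, which held 2.15% of their reads. For Rpl15 the own row held 21.6% of the reads of a family with 26 copies, and for Rpl35 37.7% of one with 13. Whether these reads came from the copies or were assigned to them by the counting cannot be told from counts.

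With the copies summed into their parents, 0 of 76 cytosolic members were called by edgeR, beside 16% of the 14595 genes tested that way (8.10% higher, 7.93% lower). At an unadjusted p under 0.05, 6 were higher and 0 lower, beside 31.6% of all genes (15.8% in each direction). Rpl15 then stood at a log2 fold change of 0.05 (SE 0.0888, edgeR adjusted p = 0.747), with its sign turned, and Rpl35 at -0.16 (SE 0.20, adjusted p = 0.608). The SD of the log2 fold change over members shrank from 0.361 to 0.198, and the median moved from 0.05 to 0.11. Members at the edges on their own rows moved inward. Rps13, a small-subunit protein with the lowest own-row value (-0.86), was at 0.17, and Rpl36a, with the highest (1.25), at 0.32. Rpl37, a large-subunit protein, moved from 0.98 to 0.09. Rps28, whose own row held 99.7% of its reads, stayed at 0.76.

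**Figure D3:**
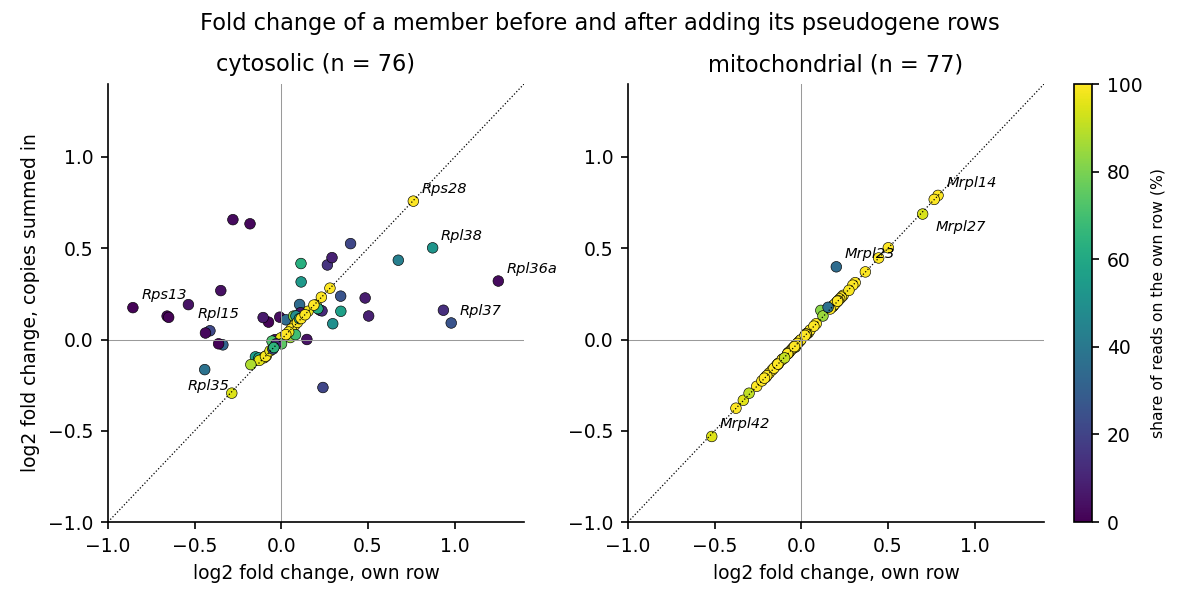
Log2 fold change from a member's own row (horizontal) against that with its pseudogene and retrocopy rows added (vertical), for tested cytosolic and mitochondrial members; colour gives the share of family reads on the own row and the dotted line marks equality. Cytosolic members with a low share leave the line, as Rpl36a does from 1.25 to 0.32, while most mitochondrial members lie on it.

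For many of these genes the knockout libraries spread more widely than the groups lay apart. KO3 was the highest library for 36 of the 76 tested cytosolic members and KO2 the lowest for 41. Rps28, a small-subunit protein near the mRNA exit, was at 268, 40.4 and 395 CPM in KO1, KO2 and KO3 and at 227, 117 and 70.5 CPM in WT1, WT2 and WT3. Its knockout libraries thus held both the highest and the lowest value (log2 fold change 0.76, SE 0.703, edgeR adjusted p = 0.498). Rpl38, a large-subunit protein whose loss in mice disturbs the patterning of the axial skeleton, was at 239, 76.6 and 382 CPM against 195, 109 and 76.8 CPM. Rpl36a was at 17.5, 4.63 and 27.0 CPM against 10.5, 5.88 and 4.41 CPM, and its log2 fold change of 1.25 had an adjusted p of 0.176 in edgeR. In Rps28, Rpl38 and Rpl36a alike, KO3 was highest, followed by KO1 and WT1, and KO2 and WT3 were the lowest pair. Rps18, a protein of the small-subunit head, was at 623, 379 and 691 CPM against 403, 345 and 313 CPM, with KO2 below WT1 (log2 fold change 0.67, SE 0.211, edgeR adjusted p = 0.0650). A range of over 2-fold across the 6 libraries was seen in 25 cytosolic members on their own rows, in 11 with copies added and in 5 mitochondrial members, beside 8.84% of tested genes whose mean reached 10 CPM.

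**Figure D4:**
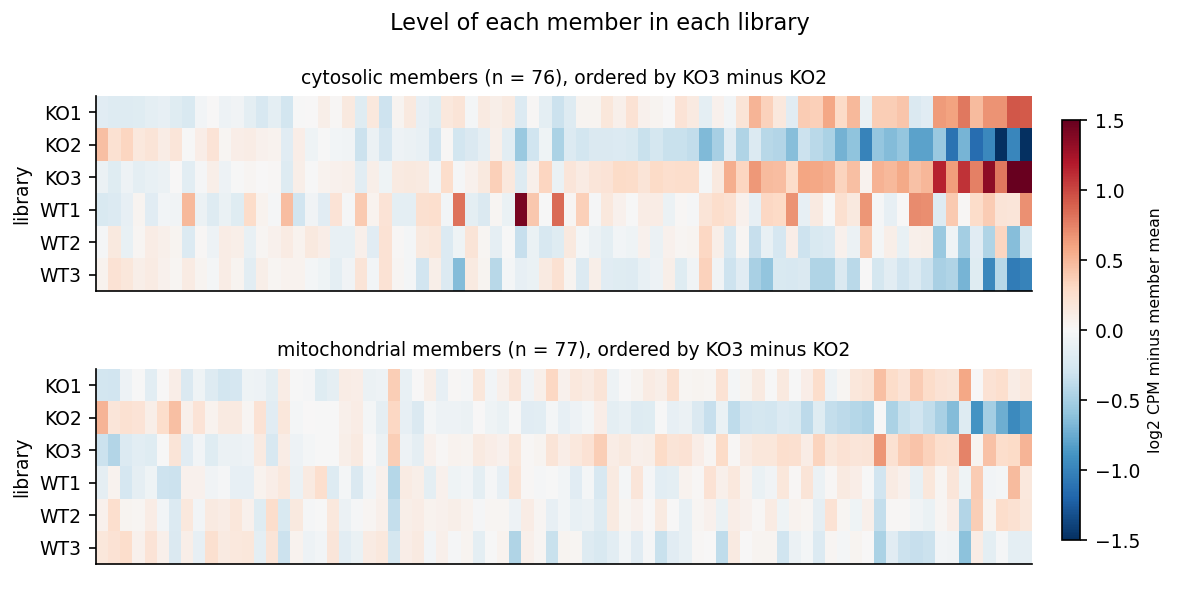
Level of each tested member in each library as log2 CPM (0.05 added) minus the member's mean over the 6 libraries, for 76 cytosolic and 77 mitochondrial members, each column 1 gene, ordered by KO3 minus KO2. The order itself places low KO2 and high KO3 values toward the right. KO1 is high there as well, and among cytosolic members WT3 is low there.

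Transcripts of other genes were compared by length. The 83 other tested protein-coding genes with a mean of 10 CPM or more and an annotated transcript length of up to 700 bases deviated from their mean over libraries by medians of 0.09, -0.22 and 0.26 on the log2 scale in KO1, KO2 and KO3 and of 0.06, -0.05 and -0.11 in WT1, WT2 and WT3. The 930 such genes of over 700 to 1500 bases deviated by 0.11, -0.06, 0.14, -0.06, -0.04 and -0.07 in the same order. The cytosolic members, with a median length of 926 bases, deviated by 0.04, -0.24, 0.15, 0.05, -0.02 and -0.09. In KO1, KO2, WT1 and WT3 they thus lay nearer to the shortest genes, and in KO3 and WT2 nearer to genes of their own median length. In KO1, WT2 and WT3 the margin was small. Mitochondrial members, with a median of 1339 bases, deviated by 0.05, -0.10, 0.11, -0.01, 0.03 and -0.02. The part of transcript length alone in the members' values was not tested. An alternative fit removed GC and length trends together, and its calls are given in the closing section. Without KO2, edgeR called 19 cytosolic members higher and 5 lower, beside 28.1% of all tested genes (15% higher, 13.1% lower); with copies added the numbers were 19 and 1, beside 28.5% (15.1% higher, 13.4% lower). Without KO2 and WT1, 37 were higher and 12 lower, beside 51.0% (25.3% higher, 25.7% lower). The number of calls thus depended on KO2 in the cytosolic set and in all tested genes, but not alike. With all 6 libraries, 2.63% of the tested cytosolic members were called, all lower, beside 15.2% of all tested genes. Without KO2, most cytosolic calls were higher, while those over all tested genes were nearly even in direction.

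Within the ribosome, the P stalk, which recruits translation factors, was among the most abundant parts. On the scale per length, Rplp1, Rplp0 and Rpl8 had the highest FPKM of all members (fragments per kilobase and depth, means of 2641, 1409 and 1357). Rplp0 was at 2212, 2394 and 2217 CPM against 2189, 2526 and 2528 CPM, Rplp1 at 1649, 859 and 1844 against 1268, 1250 and 1065 CPM, and Rplp2 at 437, 364 and 482 against 420, 398 and 451 CPM. None of these, nor their binding partner Rpl12 (58.8 ± 7.96 against 65.2 ± 14.0 CPM, SD, n = 3 each), was called; only for Rplp1 did leaving out KO2 give a call (log2 fold change 0.55, edgeR adjusted p = 0.00737). Rpl5 and Rpl11, which bind 5S rRNA and, when free, hold back the p53 ligase MDM2, went opposite ways in value. Rpl5 was at 82.5, 76.3 and 91.0 CPM against 111, 105 and 99.2 CPM, without overlap but not called (log2 fold change -0.34, SE 0.0966, edgeR adjusted p = 0.0505), and Rpl11 was at 101, 59.4 and 110 CPM against 98.6, 73.7 and 52.8 CPM. With copies added, Rpl5 was at -0.03 (edgeR adjusted p = 0.938) and Rpl11 at 0.41 (adjusted p = 0.0619). Of 15 members mutated in Diamond-Blackfan anaemia, a failure of red cell formation, 1 was called, a share of 6.67% beside 15.2% of all tested genes. It was Rpl15, whose sign turned with copies added, and the list had a median log2 fold change of -0.05. The lowest tested members by FPKM were Rpl24, Rps13 and Rps10 (0.761, 1.64 and 3.83), each with at most 2.07% of its family's reads on its own row, so these levels describe the rows.

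In the mitochondrial ribosome 4 members rose and 1 fell, and the summed level overlapped between the groups through KO2. Of 78 members 77 were tested; the higher ones were Mrpl27, Mrpl54, Mrpl58 and Mrps16 and the lower one Mrps2, a share of 6.49% beside the 15.2% of all tested genes, and 8 were higher and 4 lower at an unadjusted p under 0.05, beside 31.0%. The median log2 fold change was -0.01. Summed CPM were 4064, 3656 and 4211 in the knockout and 3865, 3954 and 3816 in the wild type (3977 ± 287 and 3878 ± 69.7, SD, n = 3 each), again with KO3 highest and KO2 lowest. The overlap rested on KO2: KO1 and KO3 lay above every wild-type library, and without KO2 the difference of the means was 259 CPM in place of 98.7 CPM (summed CPM, mitochondrial). Groups did not overlap in 14 members, 7 above and 7 below, beside 18.3% and 18.4% of all tested genes. Mrpl53, the untested member, had 0 counts in every library. Of 48 tested members with a bacterial counterpart, 2 were higher and 1 lower, and of 28 without one, 2 were higher and 0 lower.

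Mrpl27 (ENSMUSG00000024414; chromosome 11, 94544593 to 94550915, plus strand), the counterpart of bacterial L27 near the peptidyl transferase centre, had the smallest adjusted p of all members. It was at 54.4, 52.3 and 54.2 CPM in the knockout and 31.2, 32.8 and 35.0 CPM in the wild type, 1.62-fold higher (log2 fold change 0.70, SE 0.0852, edgeR adjusted p = 0.00244). Its call, alone among the 7, held in all 6 fits that left out 1 library (largest adjusted p = 0.0196), and adding its single copy gave 0.69. Mrpl54 (ENSMUSG00000034932; chromosome 10, 81100547 to 81102768, minus strand), a large-subunit protein without a bacterial counterpart, was at 55.9, 40.5 and 64.7 CPM against 33.4, 31.9 and 29.4 CPM. Its knockout libraries lay above all wild-type libraries, though KO2 was the nearest to them (log2 fold change 0.77, SE 0.163, edgeR adjusted p = 0.0181). Mrpl58 (ENSMUSG00000018858; chromosome 11, 115294578 to 115303500, plus strand), also called ICT1, is a peptidyl-tRNA hydrolase that frees stalled mitochondrial ribosomes and is built into the large subunit. It was at 53.9, 69.1 and 57.8 CPM against 40.3, 43.9 and 43.5 CPM, and here KO2 was the highest library (log2 fold change 0.50, SE 0.110, edgeR adjusted p = 0.0204). Mrps16 (ENSMUSG00000049960; chromosome 14, 20439372 to 20443702, minus strand), a conserved small-subunit protein whose loss in humans causes a respiratory chain disorder, was at 47.0, 44.1 and 52.9 CPM against 34.7, 36.0 and 35.0 CPM (log2 fold change 0.45, SE 0.0952, edgeR adjusted p = 0.0183). Mrps2 (ENSMUSG00000035772; chromosome 2, 28358078 to 28361190, plus strand), the counterpart of bacterial S2, was at 46.9, 46.1 and 44.1 CPM against 56.0, 62.6 and 59.5 CPM, 1.30-fold lower (log2 fold change -0.38, SE 0.0842, edgeR adjusted p = 0.0216). Without KO1, KO3, WT2 or WT3 in turn, 2, 1, 1 and 1 mitochondrial members were called, beside 5.62%, 5.43%, 6.07% and 5.28% of all tested genes; without WT1 5 were, beside 13.5%. Without KO2, 12 were higher and 4 lower, beside 28.1% of all tested genes, and without both KO2 and WT1, 28 and 15, beside 51.0%. The calls of Mrpl54, Mrps16 and Mrps2 were lost without KO1, KO3, WT2 or WT3, and that of Mrpl58 without KO3 or any wild-type library (largest adjusted p in edgeR 0.0783, 0.0854, 0.143 and 0.0762).

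The largest log2 fold change of the mitochondrial set was that of Mrpl14, a conserved protein at the interface of the subunits, which was not called. It was at 90.6, 53.3 and 102 CPM against 58.0, 44.6 and 39.5 CPM, so that KO2 lay below WT1 (log2 fold change 0.79, SE 0.238, edgeR adjusted p = 0.0586; 0.00214 without KO2). The smallest was that of Mrpl42, at 51.7, 27.7 and 53.2 CPM against 67.3, 66.6 and 55.6 CPM (-0.52, SE 0.227, edgeR adjusted p = 0.163). By FPKM the highest members were Mrpl12, which also binds the mitochondrial RNA polymerase, Mrpl2 and Mrpl14 (means of 119, 68.2 and 67.9), and the lowest Mrpl23, Mrpl48 and Mrps35 (2.64, 2.78 and 5.06). Mrpl23 kept 34.9% of its family's reads on its own row; with its copies it was called higher (log2 fold change 0.40, edgeR adjusted p = 0.0260), which made 6 mitochondrial calls in that fit. The authors' deposited table, at an adjusted p under 0.05, calls the same 5 mitochondrial members and Mrpl14. It also calls 6 cytosolic ones (Rps18 and Rpl34 higher, and Rpl35, Rpl15, Rpl5 and Rpl27 lower). The share of all genes called by the authors was not counted, so whether these numbers are many or few cannot be said.

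Mrpl27, Mrpl54 and Mrpl58 lie among genes of which several rose as well. Within 500 kb on either side of Mrpl27, 8 of 18 tested genes were higher and 0 lower; for Mrpl54 these were 11 of 44 and 0, and for Mrpl58 7 of 30 and 0, beside 7.69% and 7.48% of all tested genes. Eme1, a subunit of a DNA endonuclease, starts within Mrpl27 and overlaps it head to head by 198 bases, and was higher too (log2 fold change 0.36, SE 0.0911, edgeR adjusted p = 0.0347). Apba3, an adaptor gene, starts 26 bases from the start of Mrpl54 on the other strand (0.81, SE 0.181, edgeR adjusted p = 0.0222), and the elongation factor gene Eef2 lies 90.3 kb away (0.64). Around Mrpl58, Cdr2l, Atp5h, a subunit of mitochondrial ATP synthase, and Kctd2, whose starts lie 21.8, 16.2 and 16.4 kb from it, had log2 fold changes of 0.45, 0.51 and 0.48 (edgeR adjusted p = 0.0229, 0.0178 and 0.0156). Mrps16 had 1 higher and 2 lower among 22 genes in its window, Mrps2 0 and 3 of 15, and Mrpl14 0 and 0 of 17. These windows were looked at after the calls were known and carry no test.

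**Figure D5:**
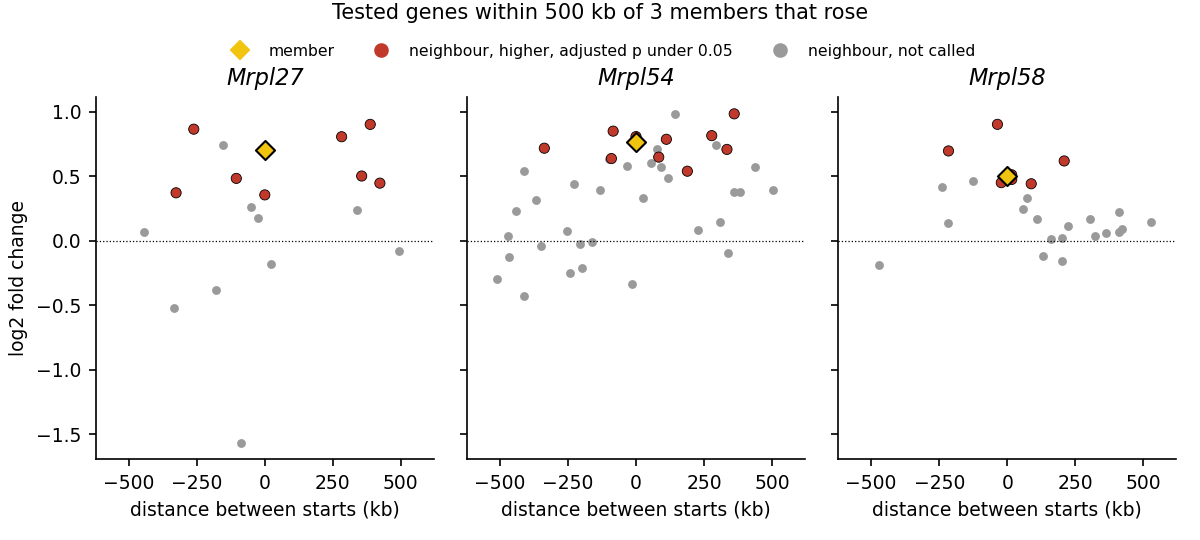
Log2 fold change of tested genes within 500 kb of Mrpl27, Mrpl54 and Mrpl58 (diamonds at 0 kb) against the distance between start sites in kb, for neighbours with a mean of at least 1 CPM; red points passed an adjusted p of 0.05. All called neighbours shown were higher; Celf5 near Mrpl54, called higher at a mean under 1 CPM, is not drawn.

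Many genes that build the cytosolic ribosome were lower in the knockout. Of 42 biogenesis factors, all tested, 0 were higher and 21 lower, beside 7.69% and 7.48% of all tested genes, and 31 had every knockout library below every wild-type library, beside 18.4%. Their median log2 fold change was -0.41, against 0.05 for the cytosolic ribosomal proteins, and their summed CPM were 5026, 4673 and 5084 in the knockout and 6672, 6738 and 6623 in the wild type. Here KO2 stood with KO1 and KO3, and the groups were apart by more than the spread within either. Nolc1, a nucleolar phosphoprotein that carries snoRNP parts, was at 129, 99.5 and 127 CPM against 234, 251 and 235 CPM (log2 fold change -1.02, SE 0.116, edgeR adjusted p = 0.0018). Gnl3, the nucleolar GTPase nucleostemin, was at 76.5, 86.1 and 71.6 CPM against 180, 138 and 148 CPM (-0.99, adjusted p = 0.0025). Dkc1, the pseudouridine synthase of box H/ACA snoRNPs, was at 101, 89.0 and 97.2 CPM against 162, 147 and 148 CPM (-0.67, adjusted p = 0.0032). Nucleolin (Ncl), at 993, 837 and 1013 against 1530, 1480 and 1436 CPM, carried the most reads of the list; it was chosen after its values were seen.

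In the 6 fits that left out 1 library, the number of biogenesis factors lower was 7 without KO1, 28 without KO2, 8 without KO3, 18 without WT1, 7 without WT2 and 9 without WT3, beside 2.53%, 13.1%, 2.46%, 6.56%, 3.05% and 2.71% of all tested genes. None was higher in any of them, beside 3.09%, 15%, 2.97%, 6.92%, 3.03% and 2.57%. Nolc1, Gnl3 and Dkc1 stayed called in each (largest adjusted p in edgeR 0.0144, 0.0155 and 0.0235). The median over the list stayed between -0.39 and -0.36. Of 14 tested genes of RNA polymerase I, which transcribes the large ribosomal RNAs, 5 were lower and 2 higher, beside 7.48% and 7.69% of all tested genes; without KO1, KO3, WT2 or WT3 in turn, 2 were lower and 1 higher. Polr1b, a catalytic subunit, was at 63.6, 67.5 and 59.9 CPM against 99.2, 103 and 103 CPM (log2 fold change -0.68, edgeR adjusted p = 0.0025), Polr1e at -0.77 and Taf1b at 0.63 (adjusted p = 0.00633 and 0.00821). The difference between these lists and the ribosomal proteins was not tested, since the lists were chosen with results known.

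In the other lists of the translation apparatus, between 0% and 18.5% of the tested genes were called, beside 15.2% of all tested genes. Of 12 ribosomal proteins whose names fall outside the rule, 0 were called. Of 17 other mRNAs of the TOP class, 1 was higher and 1 lower, Eef2, the ribosome translocation factor, at 6015, 5670 and 5770 CPM against 3162, 4108 and 3953 CPM (log2 fold change 0.64, SE 0.119, edgeR adjusted p = 0.0114) and Nap1l1 (-0.31, adjusted p = 0.0475). Of 25 initiation factors, 1 was higher (Eif1, 0.47) and 2 lower (Eif3j1 and Eif4g1, -0.40 and -0.39). With 1 library left out, the largest adjusted p in edgeR was 0.0555 for Eef2 and 0.0891 for Eif1. Of 19 genes of mTORC1, LARP1 and MYC control, 1 was higher, the 4E-BP gene Eif4ebp1 (0.48, edgeR adjusted p = 0.0295), and 1 lower, Larp4 (-0.46, adjusted p = 0.0442). For mitochondrial translation, 4 of 27 ribosome assembly factors were higher, among them the rRNA methyltransferases Mrm1 and Mrm3 (0.57 and 0.48), and 1 lower, Grsf1 (-0.49), the list with the highest share called, 18.5%. Of 16 translation factors 1 was higher, Mtif3 (0.37), and 1 lower, the elongation factor Gfm1, at 110, 99.1 and 112 CPM against 145, 181 and 168 CPM (-0.62, edgeR adjusted p = 0.00880). Of 20 mitochondrial tRNA synthetases 2 were lower, Yars2 (-0.56) and Mars2 (-0.69), and 0 higher.

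The genes whose log2 CPM followed the mean of the cytosolic members most closely over the 6 libraries were Sox2, Uqcr11, Gm14567, S100a6 and Tmem258, with Pearson correlations of 0.998, 0.988, 0.988, 0.988 and 0.988. For the mitochondrial members they were Lamtor1, Zxdb, Gm9385, Ccdc12 and Nfix (0.994, 0.993, 0.993, 0.992 and 0.992). These are the highest of all tested genes' correlations over 6 points that share library depth and composition, and describe only the pattern. S100a6 was at 815, 444 and 934 CPM in the knockout and 761, 640 and 584 CPM in the wild type, with KO3 highest and KO2 lowest, as for the ribosomal proteins.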

How the data were processed

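RNA-seq counts of 3 Matr3 knockout and 3 wild-type libraries were analysed, grouped by title and genotype label. The authors deposited 1 table with raw counts per gene, FPKM values, their group means (signal), log2 fold changes and p-values, per the file headers. Which aligner, counter or gene annotation they used is not stated in the labels or headers; GRCm38 and mm10 are builds listed in the submitters' processing notes. Counts were tested as deposited with edgeR 4.0.16 in R 4.3.3 (filterByExpr, TMM, quasi-likelihood F test, Benjamini-Hochberg adjustment over 14842 tested genes, called under 0.05), after the scripts were tested on simulated data. CPM use TMM-adjusted totals. FPKM served to rank members by level and as the input of an alternative fit with limma. Copies of members were pseudogene rows, and protein-coding rows with only a Gm number, whose symbol or description names a member. Members and lists were chosen with earlier results of these data known. Named were the called members, those at the extremes of FPKM and fold change, the stalk, 5S-binding and tissue-restricted members, and up to 3 called genes of each other list; Rps28, Rpl38, Rpl37, Rps18, Rps27, Rpl4, Rpl41, Rps9, Rps21, Ncl, the authors' calls and the genes near members were added after their values were seen. Alternatives were other scalings, filters, tools (DESeq2 1.42.0, limma 3.58.1), a replicate block, removal of GC and length trends, a stricter threshold and left-out libraries; summing copies was added after seeing the data. Depth and CPM limit precision for counting error only.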

Additional observations from a re-analysis of the deposited data

How the results depend on the processing

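Of the 2 cytosolic and 5 mitochondrial calls, counts were within 1.5 times under RLE factors, library totals alone, TMM without ribosomal protein genes and a mean of at least 1 CPM. Cytosolic calls numbered 13 without the filter on low counts (10.6% of all genes called). They numbered 7 with DESeq2 (19.62% of all genes), 4 with limma voom (15.02%) and 1 with limma on log2(FPKM + 1) (12.48%). With GC and length trends removed there were 5 (8 mitochondrial), beside 19.57% of all genes. At an adjusted p under 0.01 there were 0 (1 mitochondrial), and the share of all genes was not counted there. Leaving out 1 library gave 0 to 24 cytosolic and 1 to 16 mitochondrial calls, the most without KO2, beside 5.28% to 28.1% of all genes. Without KO2 and WT1 there were 49 and 43, beside 51.0%. With copies summed, cytosolic calls numbered 0, 0 to 20 with 1 library left out, and 54 of 76 without KO2 and WT1 (51.6% of all genes called); mitochondrial calls were 1 to 17 and 44. For summed CPM, cytosolic members differed (knockout minus wild type) by 1701 (172.1 to 3425 with 1 library left out), with copies 4250.3, and with copies and without KO2 7066. The mitochondrial median of -0.01 ranged from -0.026 to 0.086 with 1 library left out and was 0.087 without KO2 and WT1; with copies these were 0.088 without KO2 and 0.090 without both. The 44 calls over all other lists were 22.9% of their 192 tested genes, beside 15.2% of all tested genes. They became 10 to 74 with 1 library left out, beside 5.28% to 28.1% of all genes, and 123 without KO2 and WT1, beside 51.0%. With copies they were 13 to 77 (15 without KO3), beside 5.84% to 28.5%, and 124 without KO2 and WT1, beside 51.6%. The causes were not tested.

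Signs that turned: with copies summed, Rpl15 was at 0.048, and at 0.043, 0.097, 0.036, 0.060, 0.064 and 0.054 without KO1, KO2, KO3, WT1, WT2 and WT3. With copies and without KO2, Rpl24 was at 1.11, Rpl28 at 0.54, Rpl35 at 0.057, Rps13 at 0.33 and Rps29 at 1.11. With copies and without KO2 and WT1, Rpl12 was at 0.14, Rpl15 at 0.11, Rpl24 at 1.2, Rpl27 at 0.27, Rpl28 at 0.68, Rpl35 at 0.13, Rps10 at 0.37, Rps13 at 0.31 and Rps29 at 1.54; Rpl12 was at 0.15 on its own row without both, and at -0.23 to 0.058 with 1 library left out.

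Replicate numbers did not pair the libraries: same-numbered libraries deviated together with correlations of 0.17, -0.03 and -0.20. The replicate block gave 2 cytosolic and 5 mitochondrial calls (Rpl15 and Mrps2 not among them, edgeR adjusted p = 0.0511 and 0.0583), and 1599 over all genes against 2252. Depth limits what is seen: members such as Rpl3l at or under 0.187 CPM could not be tested, and small changes can be missed with 3 libraries a group.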
